A study of Mus musculus with 6 samples.

Results

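The genes described here make, load, take up, degrade or sense GABA and glycine, the main inhibitory transmitters of the nervous system. They are 29 genes chosen by symbol out of the 55416 in the deposited count table, and each symbol matched a single row. They were measured in mouse ganglionic eminences of embryonic stage E13.5. These are the swellings of the ventral forebrain that produce striatal projection neurons and cortical interneurons. RNA came from 3 Dlx1/Dlx2 double knockout samples and 3 samples from wildtype littermates. Dlx1 and Dlx2 encode homeodomain transcription factors of this tissue. The labels give no sex, no number of embryos per sample and no strain, and do not say how the alleles were made. Since the labels do not say that the libraries came from separate animals, p-values measure the spread between these samples.

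GABA is made from glutamate by 2 glutamate decarboxylases, GAD67 (Gad1) and GAD65 (Gad2), and is packed into vesicles by the vesicular inhibitory amino acid transporter (Slc32a1), which also carries glycine. Outside the vesicle it is taken up by plasma membrane transporters and broken down by GABA transaminase (Abat) and succinic semialdehyde dehydrogenase (Aldh5a1). It opens the chloride channels of the GABAA receptor and acts on the G protein coupled GABAB receptor. Chloride import by NKCC1 (Slc12a2) and export by KCC2 (Slc12a5) set which way chloride flows when these channels or the glycine receptor open, and in immature neurons GABA is commonly depolarising. GABA is the transmitter of most neurons that the ganglionic eminences produce.

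The upstream sequences of Gad1, Gad2 and Slc32a1 are shown because these 3 genes had the largest fold differences of the 25 genes that could be tested. Each sequence holds the 250 bases before the RefSeq gene start, in build GRCm38.p6 and on the plus strand, and capitals mark TAAT or its reverse complement ATTA, the core that homeodomain proteins bind.
Gad1, chr2:70561879-70562128: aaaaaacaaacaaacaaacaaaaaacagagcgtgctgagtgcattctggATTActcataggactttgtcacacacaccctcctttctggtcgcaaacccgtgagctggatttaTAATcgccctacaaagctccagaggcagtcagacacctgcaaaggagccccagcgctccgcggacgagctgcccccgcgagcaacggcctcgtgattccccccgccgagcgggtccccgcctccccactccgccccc
Gad2, chr2:22622077-22622326: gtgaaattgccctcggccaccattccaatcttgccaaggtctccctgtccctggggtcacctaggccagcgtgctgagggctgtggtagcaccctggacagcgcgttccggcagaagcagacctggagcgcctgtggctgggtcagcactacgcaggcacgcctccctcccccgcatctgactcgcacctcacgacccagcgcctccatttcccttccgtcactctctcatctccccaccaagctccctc
Slc32a1, chr2:158610508-158610757: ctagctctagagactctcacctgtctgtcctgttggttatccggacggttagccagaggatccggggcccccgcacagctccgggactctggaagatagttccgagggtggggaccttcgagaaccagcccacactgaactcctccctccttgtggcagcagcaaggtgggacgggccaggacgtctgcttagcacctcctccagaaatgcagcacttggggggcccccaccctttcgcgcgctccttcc
The Gad1 window held 2 copies of TAAT counted on both strands, and the Gad2 and Slc32a1 windows held none. At least 1 copy was found in 54.9% of 32851 RefSeq windows of the same length. The longer letters TAATT, which contain TAAT, were in none of the 3 windows and in 25.03% of all windows. The palindrome TAATTA, which contains both, was in none of the 3 and in 4.84% of all windows. GC content was 58.0%, 64.0% and 62.4% in the Gad1, Gad2 and Slc32a1 windows, against a median of 52.4% over all windows. Of the 29 genes, 25 matched a RefSeq window, with 32 windows between them because some genes have several. A gene was counted if any of its windows held the letters, so its counts are not on the scale of the shares of windows. TAAT was found in 11 of the 25, Gad1 among them. TAATTA was found in 1 of the 25, Gabrg1, and TAATT in 6, which were Gabrg1, Gabrb2, Gabra6, Glra3, Aldh5a1 and Slc6a13. A missing match says only that these letters are not in the window.

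The libraries held 56618090 to 70114173 counts each, and none were identical. Dlx1 and Dlx2 were lower in all 3 libraries labelled double knockout, at 18.6% ± 2.46 (SD, n = 3) and 2.94% ± 0.674 (SD, n = 3) of the wild-type mean. Marker genes of the labelled tissue were present, and none of the marker genes in 10 lists had 0 reads throughout. Ganglionic eminence neuron markers (10 genes) summed to 1034 to 1064 CPM (counts scaled by library size) in the wild type and 473 to 585 CPM in the double knockout, with 8 of 10 called lower and 1 higher. General neuron markers (12 genes) summed to 7416 to 8090 and 6083 to 7161 CPM, with 2 called lower. Progenitor markers (10 genes) summed to 2792 to 3165 and 3238 to 3826 CPM, with 1 called higher. Markers of cortical excitatory neurons (9 genes, some also expressed in ventral neurons) were present too, at 1694 to 1727 and 1243 to 1308 CPM, with 2 called lower. Oligodendrocyte precursor markers (5 genes) summed to 74.1 to 76.0 and 137 to 177 CPM, with 4 called higher. The sums of vascular, mural and meningeal, blood and microglial markers overlapped between the groups. Choroid plexus markers (4 genes) summed to 31.1 CPM in wild-type replicate 1 and to 0.670 to 1.37 CPM in the other libraries. Xist reached 1234 to 1552 CPM in replicates 2 and 3 of the wild type and replicate 1 of the double knockout, and at most 0.827 CPM in the others. The groups therefore differ in their make-up by sex.

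The double knockout had much less RNA of the genes that make and load GABA, somewhat less of a GABA-degrading enzyme and of the chloride importer, and no receptor gene passed the test. Gad1, Gad2, Slc32a1, Abat and Slc12a2 were lower, and none of the 29 was higher. Of the 29 genes, 25 had enough reads to be tested and 5 were called by edgeR's quasi-likelihood test, with an adjusted p below 0.05. Over all 23628 tested genes 2.68% were called. Lower calls made up 1.34% of all tested genes, and higher calls 1.34%. The 2 groups of libraries did not overlap for 11 of the 25, 9 with the double knockout below and 2 with it above, where this held for 19.5% of all tested genes, 10.2% below and 9.3% above. The median log2 fold change of the 25 was -0.29, against -0.0016 over all tested genes. The genes were chosen with earlier results in view, so these shares describe the list and do not test it. In bulk tissue, fewer cells of a type and less RNA per cell cannot be told apart. The sums of general neuron, ganglionic eminence, cortical excitatory, progenitor and oligodendrocyte precursor markers given above differed between the groups without overlap. Mean sums went from 1050 to 518 CPM for ganglionic eminence markers and from 1707 to 1265 CPM for cortical excitatory markers. A large part of the cortical excitatory sum came from 1 gene, Bcl11b, which went from 779 to 537 CPM. Of the 9 genes in that list, 8 had a log2 fold change below 0, and Slc17a6 went from 60.4 to 62.9 CPM. The part of these markers in the differences of the 29 genes was not tested. The same 5 genes were called in each of the 6 fits that left out 1 library. The number called over all genes was 309, 325 and 403 without wild-type replicates 1, 2 and 3, 380, 402 and 749 without double knockout replicates 1, 2 and 3, and 634 with all libraries.

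**Figure D1:**
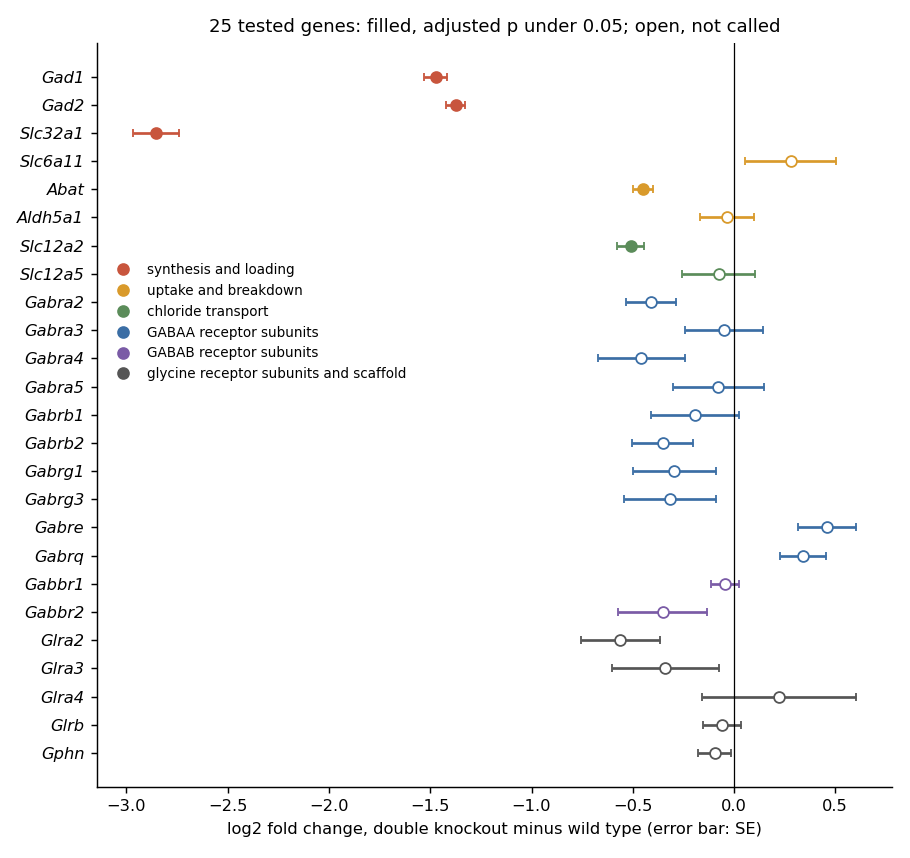
Log2 fold changes (double knockout minus wild type, x axis) with standard errors for the 25 tested genes, coloured by role; filled points were called at an adjusted p under 0.05. The 3 synthesis and loading genes lie between -2.85 and -1.38, Abat and Slc12a2 near -0.5, and the open points between -0.56 and 0.46.

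All 3 genes of synthesis and loading were lower. Gad1 (ENSMUSG00000070880, chromosome 2), whose product makes most GABA in the cell body, was at 124.9, 114.9 and 119.2 CPM in wild-type replicates 1 to 3 and at 44.2, 40.3 and 44.7 CPM in double knockout replicates 1 to 3. The highest double knockout library was far below the lowest wild-type library, with 36.0% ± 1.998 (SD, n = 3) of the wild-type mean remaining. The log2 fold change of Gad1 was -1.47 (SE 0.058), with an edgeR adjusted p of 6.83e-06.

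Gad2 (ENSMUSG00000026787, chromosome 2), which encodes the decarboxylase concentrated at nerve endings, was at 319.2, 325.5 and 322.9 CPM in the wild type and 122.5, 122.3 and 128.2 CPM in the double knockout. Replicates lay within a few CPM of each other in both groups, and the groups were far apart. The remaining level was 38.6% ± 1.04 (SD, n = 3), a log2 fold change of -1.38 (SE 0.0463, edgeR adjusted p = 4.39e-06).

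Slc32a1 (ENSMUSG00000037771, chromosome 2) was at 38.3, 42.4 and 40.1 CPM in the wild type and 5.05, 6.56 and 5.12 CPM in the double knockout. It kept the smallest share of its wild-type level among the 25 tested genes, 13.8% ± 2.11 (SD, n = 3), from 328 to 378 reads per library against 2243 to 2725. This was a log2 fold change of -2.85 (SE 0.113, edgeR adjusted p = 6.83e-06). Over 697 of its 2797 exonic bases, Slc32a1 overlaps the antisense gene Gm14205 in GENCODE M21, and the sources used here do not give the strand setting of the counting. Gm14205 itself had 22 to 33 reads in wild-type libraries and 1 to 6 in double knockout libraries.

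The 3 genes were compared with each other within each library, where scaling between libraries plays no part. There were 0.307, 0.369 and 0.337 Slc32a1 reads per Gad1 read in the wild-type libraries and 0.114, 0.163 and 0.115 in the double knockout libraries. The ratio was lower in all 3 double knockout libraries, with a log2 difference of -1.39 (exact two-sided permutation p = 0.1, the smallest that 3 against 3 can give, 0.24 after adjustment over 6 ratios). There were 0.391, 0.353 and 0.369 Gad1 reads per Gad2 read in the wild type and 0.361, 0.330 and 0.348 in the double knockout. These values overlapped, with a log2 difference of -0.099 (exact permutation p = 0.2, adjusted 0.24) that is close to the replicate SDs of 0.0746 and 0.0654. The difference in this ratio was -0.06 without wild-type replicate 1 and -0.064 without double knockout replicate 2.

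**Figure D2:**
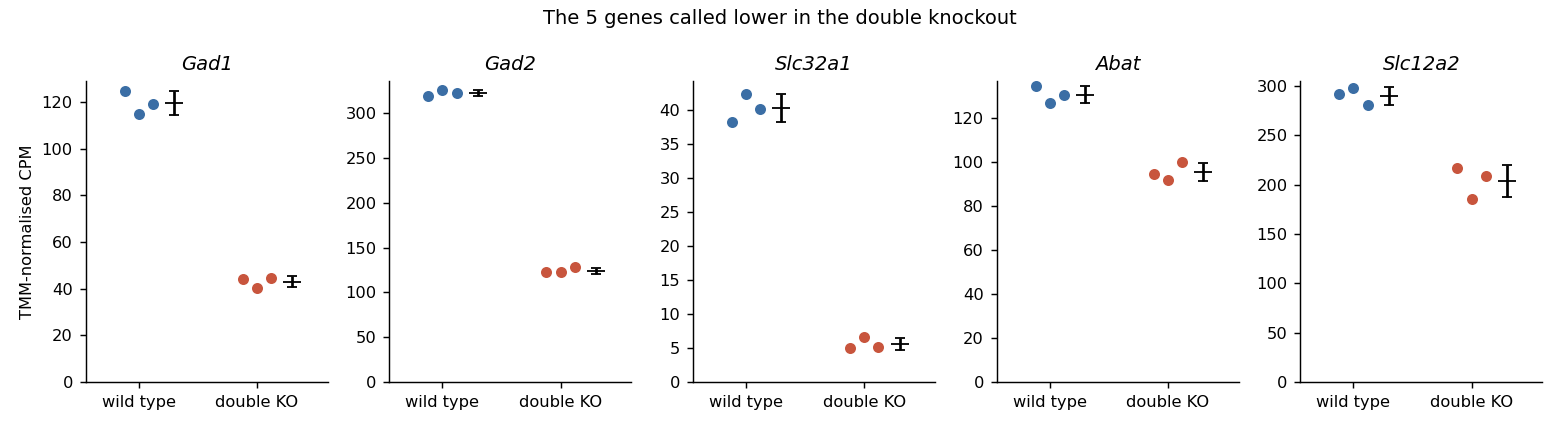
TMM-normalised CPM (y axis from 0, a separate scale in each panel) of the 5 called genes in each library, with the mean ± SD of 3 libraries beside the points. No double knockout library reaches the wild-type range in any panel, and the gap relative to the wild-type level is widest for Slc32a1, at 5.05 to 6.56 against 38.3 to 42.4 CPM.

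Among the 4 genes of uptake and breakdown, 1 was lower, 2 did not pass the test and 1 was not tested. Abat (ENSMUSG00000057880, chromosome 16), which starts GABA breakdown, was at 134.4, 126.5 and 130.3 CPM in the wild type and 94.5, 91.9 and 99.8 CPM in the double knockout. The groups were separated by a gap several times the spread within either, with 73.2% ± 3.10 (SD, n = 3) remaining. This corresponds to a log2 fold change of -0.45 (SE 0.0499, edgeR adjusted p = 0.00214). Aldh5a1, which carries out the next step of breakdown, was at 34.6 to 50.9 CPM in the wild type and 42.5 to 46.1 CPM in the double knockout, with a log2 fold change of -0.036 (SE 0.132). Its sign turned without wild-type replicate 1 or 2, at 0.039 and 0.061. Antisense genes overlap Aldh5a1, so its counts are uncertain. Slc6a11, a GABA transporter (GAT3) typical of astroglia, was at 6.89 to 11.1 and 7.81 to 12.5 CPM (log2 fold change 0.28, SE 0.223, edgeR adjusted p = 0.693). The log2 fold change of Slc6a11 was 0.54, 0.16 and 0.17 without wild-type replicates 1, 2 and 3, and 0.092 and 0.44 without double knockout replicates 1 and 3. Slc6a13, the GABA transporter GAT2 of meninges and blood vessels, had 2 to 10 reads per library, near the smallest count of 3 taken as measurable, and was not tested.

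The chloride importer gene was lower and the exporter gene did not pass the test. Slc12a2 (ENSMUSG00000024597, chromosome 18) was at 291.6, 298.3 and 280.2 CPM in the wild type and 217.3, 185.3 and 208.5 CPM in the double knockout. The groups did not overlap, and the double knockout kept 70.2% ± 5.70 (SD, n = 3) of the wild-type mean. This corresponds to a log2 fold change of -0.51 (SE 0.0665, edgeR adjusted p = 0.00506). Without wild-type replicate 1, the library with the high choroid plexus marker sum, the log2 fold change of Slc12a2 was -0.51 (edgeR adjusted p = 0.0291). The part of choroid plexus tissue in the Slc12a2 difference was not tested.

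Slc12a5 (ENSMUSG00000017740, chromosome 2), whose expression normally increases as neurons mature, was at 43.6, 36.0 and 37.3 CPM in the wild type and 42.5, 42.9 and 25.7 CPM in the double knockout. The first 2 double knockout libraries lay within the wild-type range and the third below it. The log2 fold change was -0.075 (SE 0.18, edgeR adjusted p = 0.918), and it was 0.14 without double knockout replicate 3 and 0.013 without wild-type replicate 1. There were 0.150, 0.121 and 0.133 Slc12a5 reads per Slc12a2 read in the wild type and 0.196, 0.232 and 0.123 in the double knockout. The ratio overlapped between groups, with a log2 difference of 0.40 (exact permutation p = 0.3, adjusted 0.3) that was 0.21 without double knockout replicate 2 and 0.67 without replicate 3.

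None of the 16 tested subunit genes of GABAA, GABAB and glycine receptors passed the test, out of 19. At an unadjusted p under 0.05 in edgeR there were 5, where 13.3% of all tested genes reached that level: Gabra2, Gabrb2 and Glra2, with log2 fold changes below 0, and Gabre and Gabrq, with log2 fold changes above 0. DESeq2 called 2 of them, Gabra2 and Glra2, with adjusted p of 0.033 and 0.0392, and limma-voom called 0. The log2 fold change was below 0 for 13 of the 16, and for 50.5% of all tested genes. Leaving out wild-type replicate 1 or double knockout replicate 3 moved many of these values by over 1.5 times. Double knockout replicate 3 was the lowest of its group for 15 of the 16 subunit genes, against 38.9% of all tested genes. The median level of the 16 genes was 96.9%, 90.0% and 63.7% of the wild-type mean in double knockout replicates 1, 2 and 3, and 112.9%, 91.6% and 96.4% in wild-type replicates 1, 2 and 3. General neuron markers had their lowest sum in the same library, 6083 CPM, and progenitor markers their highest, 3826 CPM. The part of these markers in the receptor values was not tested.

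**Figure D3:**
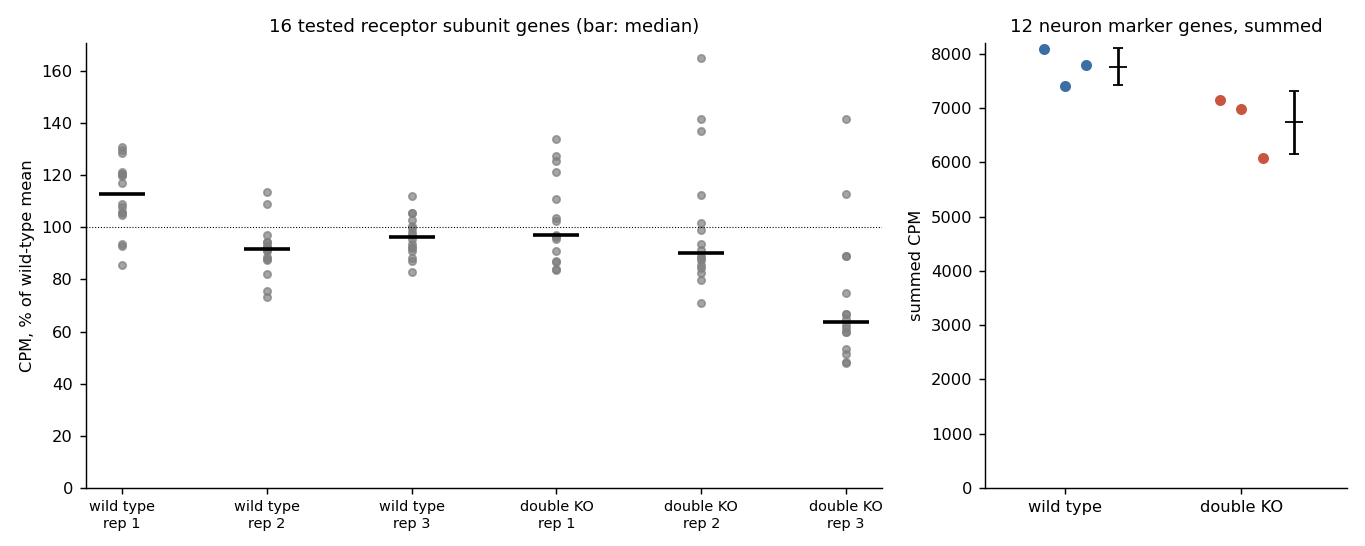
Left, the level of each of 16 tested receptor subunit genes in each library as a percentage of its wild-type mean (points), with the median as a bar; right, the summed CPM of 12 neuron marker genes by group (points, libraries; bar, mean ± SD). Double knockout replicate 3 has the lowest median, 63.7%, and the lowest marker sum, 6083 CPM.

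GABAA receptors are pentamers, usually of α, β and γ subunits, and the α subunit sets much of their pharmacology and kinetics. Gabra2, an α subunit common in embryonic brain, was at 66.5, 56.8 and 62.0 CPM in the wild type and 51.6, 51.0 and 37.0 CPM in the double knockout. The groups did not overlap, but the log2 fold change of -0.41 (SE 0.123) had an edgeR adjusted p of 0.165. Without double knockout replicate 3 its log2 fold change was -0.26. Gabra3, also a mainly prenatal α subunit, was at 34.7, 27.1 and 27.4 CPM and 33.0, 33.5 and 19.8 CPM, with overlapping groups (log2 fold change -0.048, SE 0.192). Its sign turned without wild-type replicate 1, at 0.077, and without double knockout replicate 3, at 0.17. The 2 genes made up most of the α subunit RNA measured here per kb of exon. Over the 5 α subunit genes examined, the share of Gabra2 was 41.0%, 44.0% and 45.7% in the wild type and 36.5%, 37.6% and 40.7% in the double knockout. The share of Gabra3 was 41.7%, 40.8% and 39.2% in the wild type and 45.4%, 48.0% and 42.5% in the double knockout. Neither pair of shares overlapped between groups, and no test was run on them.

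Gabra5, the α subunit typical of extrasynaptic receptors in hippocampus, made up 11.4% ± 1.61 and 12.8% ± 1.80 (SD, n = 3) of the same sum. Its log2 fold change of -0.077 (SE 0.225) turned to 0.16 without wild-type replicate 1 and 0.078 without double knockout replicate 3. Gabra4 made up 4.46% ± 0.325 and 3.70% ± 0.369 (SD, n = 3), and its log2 fold change was -0.46 (SE 0.215, edgeR adjusted p = 0.417). Its libraries were at 5.31, 4.89 and 4.88 CPM in the wild type and 4.58, 4.01 and 2.41 CPM in the double knockout, without overlap. Without double knockout replicate 3 the log2 fold change of Gabra4 was -0.22. Gabra6, the α subunit of cerebellar granule cells, had 0 to 2 reads per library. There were 7.94, 10.8 and 11.1 Gabra2 reads per Gabra5 read in the wild type and 6.66, 9.02 and 7.76 in the double knockout, with a log2 difference of -0.35 (exact permutation p = 0.2, adjusted 0.24).

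Of the β subunits, Gabrb2 was at 48.7, 35.7 and 37.6 CPM in the wild type and 35.3, 34.7 and 25.5 CPM in the double knockout. The groups were only just apart, and the log2 fold change was -0.35 (SE 0.15, edgeR adjusted p = 0.361). For Gabrb2 this value was -0.20 without wild-type replicate 1 and -0.21 without double knockout replicate 3. Gabrb1 was at 7.09 to 11.7 and 6.27 to 10.03 CPM, with overlapping groups and a log2 fold change of -0.19 (SE 0.216). This value was -0.033 and -0.37 without wild-type replicates 1 and 2, and -0.34 and -0.0095 without double knockout replicates 1 and 3. The γ subunit genes also overlapped between groups, with a log2 fold change of -0.29 (SE 0.204) for Gabrg1 and -0.32 (SE 0.228) for Gabrg3. Without wild-type replicate 1 these values were -0.065 and -0.096, and without double knockout replicate 3 they were -0.16 and -0.13. For Gabrg3 the value was -0.48 without wild-type replicate 2. Gabra4 and Gabrb1 lie side by side on chromosome 5 and share 46 exonic bases on opposite strands. Opposite-strand transcripts also overlap exons of Gabra5, Gphn and Glra1, so the counts of these genes are uncertain as well. The δ subunit gene Gabrd, a partner in extrasynaptic receptors, had 2 to 11 reads per library and was not tested.

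The ε and θ subunit genes went the other way from most subunits. Gabre (ε) was at 1.74, 1.76 and 2.09 CPM in the wild type and 2.50, 2.55 and 2.64 CPM in the double knockout. Gabrq (θ) was at 6.88, 6.07 and 6.75 CPM in the wild type and 8.23, 9.30 and 7.41 CPM in the double knockout. All double knockout libraries were above all wild-type libraries for both genes, including replicate 3, in which most other subunits were low. Neither passed the test, with a log2 fold change of 0.46 for Gabre (SE 0.145, edgeR adjusted p = 0.188) and 0.34 for Gabrq (SE 0.115, edgeR adjusted p = 0.226). Gabre, Gabrq and Gabra3 lie in a cluster on the X chromosome, where Glra2 and Glra4 also lie. With Y-linked expression as a covariate the log2 fold changes of Gabre and Gabrq were 0.47 and 0.32, with edgeR adjusted p of 0.355 and 0.451.

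The GABAB receptor is an obligate pair of GABBR1, which binds GABA, and GABBR2, which couples to the G protein. Gabbr1 (ENSMUSG00000024462, chromosome 17) was at 274.8, 244.3 and 258.8 CPM in the wild type and 265.9, 256.2 and 230.9 CPM in the double knockout. The ranges overlapped and the estimate was close to 0, with a log2 fold change of -0.047 (SE 0.0691), which was 0.016 without double knockout replicate 3. Gabbr2 (ENSMUSG00000039809, chromosome 4) was at 23.5, 17.3 and 17.7 CPM in the wild type and 18.7, 17.1 and 9.99 CPM in the double knockout. Only the third double knockout library was far from the wild type, and the log2 fold change was -0.35 (SE 0.221, edgeR adjusted p = 0.583) with it and -0.11 without it. Without wild-type replicate 1 it was -0.20. edgeR called 0 of the 2 genes, and 0 had an unadjusted p under 0.05 or a call by DESeq2 or limma-voom. Per kb of exon the Gabbr1 level was 33.4 ± 1.97 CPM and the Gabbr2 level 2.92 ± 0.518 CPM (SD, n = 3) in the wild type. There were 11.7, 14.1 and 14.6 Gabbr1 reads per Gabbr2 read in the wild type and 14.2, 14.99 and 23.1 in the double knockout, with a log2 difference of 0.34 (exact permutation p = 0.2, adjusted 0.24) that was 0.12 without double knockout replicate 3.

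Glycine receptors are built of α subunits with or without β, and α2 is the main embryonic form. Glra2 was at 45.5, 34.5 and 33.4 CPM in the wild type and 31.8, 26.8 and 18.3 CPM in the double knockout. The groups did not overlap, though the gap was smaller than the spread within either. The log2 fold change of -0.56 (SE 0.195) had an edgeR adjusted p of 0.238, and it was -0.36 without double knockout replicate 3 and -0.41 without wild-type replicate 1. Per kb of exon, Glra2 made up 97.4% ± 0.662 and 96.3% ± 0.952 (SD, n = 3) of the summed level of the 4 α genes in the wild type and the double knockout.

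Glrb, the β subunit that links the receptor to its scaffold, was at 15.96, 13.6 and 14.4 CPM and 14.2, 14.9 and 13.02 CPM (log2 fold change -0.059, SE 0.0931). Its sign turned, at 0.0055, without wild-type replicate 1. There were 2.85, 2.53 and 2.32 Glra2 reads per Glrb read in the wild type and 2.23, 1.80 and 1.40 in the double knockout. This ratio did not overlap between groups, with a log2 difference of -0.53 (exact permutation p = 0.1, the smallest possible, adjusted 0.24). Glra3 and Glra4 were under 1.1 CPM in each library, and neither passed the test. The log2 fold change was -0.34 (SE 0.264) for Glra3, or -0.11 without double knockout replicate 3, and 0.22 (SE 0.379) for Glra4, which turned to -0.092 without double knockout replicate 2. Glra1, the adult spinal α subunit, had 0 to 3 reads. Gphn encodes gephyrin, the scaffold that anchors glycine and many GABAA receptors at synapses. It was at 44.4, 47.4 and 45.5 CPM and 45.1, 45.8 and 37.6 CPM, with overlapping groups and a log2 fold change of -0.096 (SE 0.081, edgeR adjusted p = 0.713). For Gphn this value was -0.15 and -0.0039 without double knockout replicates 2 and 3.

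Levels of different genes were compared per kb of exon, on the TMM-normalised CPM scale. In the wild type Gad2 was highest at 54.9 ± 0.543 CPM per kb, followed by Gabbr1 and by Slc12a2 at 26.6 ± 0.841 (SD, n = 3), and the libraries of these 3 genes did not overlap. Abat at 16.8 ± 0.512, Gad1 at 15.7 ± 0.656 and Slc32a1 at 14.4 ± 0.737 came next, and neighbours among them overlapped. Gphn at 12.2 ± 0.41 and Glra2 at 12.01 ± 2.13 also overlapped. Per kb, Glra2 thus had the highest level of the chloride channel subunits examined. Gabra2 at 8.09 ± 0.635 and Gabra3 at 7.57 ± 1.11 followed, and the libraries of these last genes overlapped. The order depends on the exon length, which joins the exons of all annotated transcripts of a gene. In wild-type mean CPM, Gabra2 at 61.8 and Gabrb2 at 40.6 were above Glra2 at 37.8. In the double knockout Gabbr1, at 32.3 ± 2.33, was above Gad2, at 21.2 ± 0.571. Gad1 went from rank 5 to 10 of the 29 and Slc32a1 from rank 6 to 17, to 5.64 ± 0.313 and 1.99 ± 0.304 CPM per kb (SD, n = 3).

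**Figure D4:**
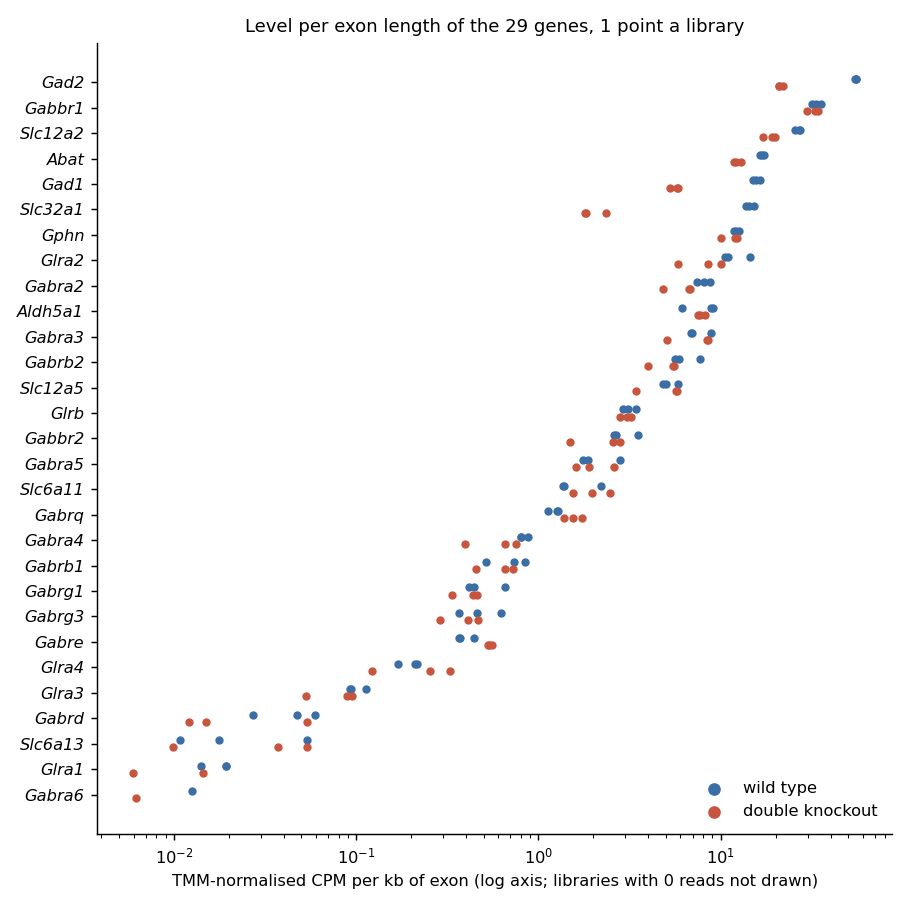
TMM-normalised CPM per kb of exon (log x axis) of the 29 genes, ordered by the wild-type mean, with 1 point per library. Among the 25 tested genes, the wild-type and double knockout points of Gad2, Gad1 and Slc32a1 are farthest apart, while most receptor genes overlap. The means of these 3 went from 54.9 to 21.2, 15.7 to 5.64 and 14.4 to 1.99 CPM per kb.

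Other genes of the same pathways, 73 in 6 lists, were read from the same fit, and 68 were tested. edgeR called 1 higher and 1 lower, against 2.68% of all tested genes, and their median log2 fold change was -0.036. Of 19 inhibitory synapse partners, which help assemble or traffic receptors, only Mdga1 was called. MDGA1 binds neuroligin-2 and limits inhibitory synapse formation. Mdga1 was at 73.0, 62.2 and 73.9 CPM in the wild type and 111.6, 105.0 and 96.2 CPM in the double knockout, and rose by a log2 fold change of 0.58 (SE 0.0801, edgeR adjusted p = 0.00699). Of 8 GABAB receptor partners, only Kctd12 was called. It encodes an auxiliary subunit that speeds desensitisation of the receptor's response. Kctd12 fell from 58.3, 52.6 and 49.97 CPM to 33.6, 30.7 and 27.8 CPM (log2 fold change -0.80, SE 0.0867, edgeR adjusted p = 0.00185). An opposite-strand gene overlaps 3805 of its 6057 exonic bases, so the counts of Kctd12 are uncertain.

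edgeR called 0 of 15 chloride transport partners, 0 of 18 tested genes of precursor metabolism and other carriers, 0 of 7 tested genes of glycine transport and cleavage, and 0 of 1 tested among other GABA-gated subunits. At an unadjusted p under 0.05 these lists held 2, 1, 3 and 0 genes. DESeq2 called 1, 0, 0 and 0 in the same order, and limma-voom called 0 in each. The DESeq2 call was Stk39, a kinase that activates NKCC1, with 0.28 as its log2 fold change (SE 0.0691, edgeR adjusted p = 0.0864). DESeq2 also called Insyn2a and Slitrk3 among the inhibitory synapse partners, with edgeR log2 fold changes of -0.31 and -0.55.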

How the data were processed

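Total RNA libraries, made with a stranded kit that depletes ribosomal RNA per the labels' protocols, were sequenced from 6 samples. The authors deposited raw read counts per gene, made with featureCounts on build GRCm39 per the submitters' processing notes. Aligner, annotation release and strand setting are not given in the sources used here.

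Genes were filtered with filterByExpr (minimum count 10, minimum total 15), scaled with TMM factors (trimmed mean of M values) and tested with edgeR 4.0.16 in R 4.3.3 on genotype alone, with Benjamini-Hochberg adjustment. CPM values are TMM-normalised, except Xist, which was scaled by total count. The standard error is the fold change over the square root of F. Exon lengths and overlaps came from GENCODE M21 (GRCm38) by Ensembl identifier, found for 98.7% of tested genes. The only coordinates given are those of the 3 upstream windows, in build GRCm38.p6, which is not the build of the counts. A count of 3, the floor, is 0.0428 to 0.053 CPM and covers counting error only, as reads are not independent molecules. On simulated counts over 23171 genes, 94.8% of genes changed by 2 on the log2 scale and 61.2% of those changed by 1 were recovered. Of the calls, 7.32% were false. Smaller changes, such as the -0.56 to 0.46 of the receptor subunit genes, were not simulated, so their recovery is not known.

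The genes and lists were chosen with earlier results of these data known. Values in every library were to be given for called genes and for synthesis, chloride and GABAB genes, and up to 4 called genes of each companion list. Values of other receptor genes, of Stk39, Insyn2a, Slitrk3 and Gm14205, and the TAAT search, were added after seeing them. Alternatives were 2 other scalings, DESeq2 1.42.0, limma-voom (limma 3.58.1), 2 filters, a threshold of 0.01, the replicate number as a block, a Y-linked covariate and leaving out each library.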

Additional observations from a re-analysis of the deposited data

How the results depend on the processing

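The same 5 genes of the 29 were called under all 15 alternatives, and 5 to 7 were called in each. DESeq2 added Gabra2 and Glra2 (7 called), and the replicate block added Glra2 (6 called, edgeR adjusted p = 0.0321). Same-numbered libraries did not deviate together, with correlations of -0.0629, -0.00129 and 0.035 over 23628 genes, and only 1 of the 6 libraries correlated best with its own number, so the numbers are not taken as pairs. With the block 690 genes were called over the table, against 634 without it. Of 348 values of single genes under an alternative, 334 kept direction and side of the threshold, 3 passed it and 11, all of uncalled genes, turned sign. Those 11 came from leaving out 1 library, with log2 fold changes in such fits of -0.19 to 0.061 for Aldh5a1, -0.19 to 0.14 for Slc12a5, -0.17 to 0.17 for Gabra3, -0.30 to 0.16 for Gabra5, -0.091 to 0.016 for Gabbr1, -0.092 to 0.55 for Glra4 and -0.11 to 0.0055 for Glrb. Over all genes, DESeq2 called 1162, the Y-linked covariate left 359, a threshold of 0.01 left 275, and leaving out 1 library gave 309 to 749. Total count scaling made 60.4% of calls higher, against 50% with TMM. Of the companion genes, 5 were called by DESeq2 and 4 without a filter, against 2. The cause of these changes was not tested. Genes near 3 reads per library, such as Gabra6 and Glra1, were not measurable at this depth.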
